A study of Mus musculus with 43 samples.

Results

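The genes described here encode subunits of the Polycomb repressive complexes of the mouse: the PRC2 core genes Ezh1, Ezh2, Eed and Suz12, and the PRC1 genes Ring1, Rnf2, Bmi1, Cbx2, Pcgf6 and Mga. They were matched by their GENCODE vM21 symbols to the gene identifiers of the expression tables, which gave 10 members among the 55401 genes listed, and all 10 passed the filter on low counts in both assays. RNA libraries of 2 kinds came from P7 mice (day 7 after birth): bulk RNA-seq of testis (3 WT and 3 Prmt1-dKO libraries) and low-input Smart-seq2 of sorted spermatogonia (2 WT and 2 Prmt1-dKO libraries). The remaining 33 files were CUT&Tag peak lists (CUT&Tag cleaves DNA where an antibody sits) for H3K4me3, H3K27ac, H3R2me2a, H3R8me2a, H4R3me1, H4R3me2a and H4R3me2s at P7 and at P14 (day 14) in WT C57BL/6J mice, plus H4R3me2s at P7 in Prmt1-dKO.

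Prmt1 is the main enzyme that places asymmetric dimethylarginine. Prmt1-dKO mice carry floxed Prmt1 alleles and a tamoxifen-inducible Ddx4-CreERT2, in which Cre is driven from the germ cell gene Ddx4, and tamoxifen is recorded for WT and knockout samples alike. The testis samples are labelled spermatogonia, but their RNA was extracted from whole testis, in which cells other than germ cells keep an intact Prmt1. The Smart-seq2 controls are labelled WT, while the sorting procedure of the study names Prmt1 heterozygous mice with the same Cre as controls. The P14 CUT&Tag samples are titled spermatogonia but annotated as spermatocytes, and the entry names inside the P14 H4R3me2s lists carry a prefix, SD17, that the sources used here do not define. The study describes its replicates as biological, but the labels do not tie the libraries to animals, so p-values measure the spread between libraries.

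Polycomb complexes keep developmental genes silent. PRC2 methylates lysine 27 of histone H3 through Ezh1 or Ezh2, which work only with Suz12, the scaffold, and Eed, which binds the methylated product. PRC1 places ubiquitin on histone H2A through Ring1 or its paralog Rnf2. Each PRC1 holds a PCGF protein that helps to fix its type. Bmi1 is a PCGF protein of the canonical form, together with a chromobox protein such as Cbx2, which reads H3K27 methylation. Pcgf6 joins the DNA-binding scaffold Mga in the variant form named PRC1.6, known for silencing germline genes. In the male germline, PRC2 and PRC1 are known to restrain somatic genes and to time the entry into meiosis.

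RNA depth was 12396345 to 16598249 expected counts in the bulk libraries and 15610392 to 18547103 in the Smart-seq2 libraries. Prmt1 itself had 237, 219 and 247 CPM (counts scaled to library size) in bulk WT and 146, 199 and 158 in bulk dKO, which gave a log2 fold change of -0.49 (SE 0.13, edgeR FDR 0.0334), and passed only with all libraries or without dKO replicate 2 (FDR up to 0.105 without 1 of the others). In Smart-seq2, Prmt1 was at 216 and 149 CPM in WT and at 112 and 86.5 in dKO (log2 fold change -0.88, SE 0.26, edgeR FDR 0.133, DESeq2 adjusted p 0.0172). Prmt1 was thus lower in dKO without overlap in both assays, as its labels require, but its counts cover the whole gene and not the floxed exons alone. Germ cell markers were present throughout, with a summed level over 14 genes of 1620 to 1890 CPM in bulk, and in Smart-seq2 of 2160 to 2360 CPM in WT and 2890 to 3040 in dKO, higher in dKO without overlap. Bulk libraries also held much Sertoli RNA, 7200 to 8160 CPM over 14 markers in WT and 5700 to 6030 in dKO. Smart-seq2 libraries held less of it, 462 to 465 CPM in WT and 801 to 945 in dKO. In whole testis, fewer cells of a type and less RNA per cell cannot be told apart.

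Levels were first compared between genes as TPM, which corrects for transcript length. In bulk WT testis the order of mean TPM was Eed (82.0 ± 6.48, SD, n = 3), Ezh2 (77.0 ± 6.56), Rnf2 (60.2 ± 6.38), Suz12 (54.2 ± 6.53), Mga (46.8 ± 10.3), Bmi1 (45.0 ± 7.35), Cbx2 (38.6 ± 3.99), Ezh1 (32.7 ± 2.7), Ring1 (31.0 ± 4.85) and Pcgf6 (22.8 ± 0.345). Neighbours in this order overlapped in their libraries except at 2 steps, between Ezh2 and Rnf2 and between Ring1 and Pcgf6. In WT spermatogonia by Smart-seq2, Eed again had the highest mean, 173 TPM ± 17.4 (SD, n = 2), without overlap with Rnf2 at 63.9 ± 8.76, and the lowest means were Pcgf6 (11.0 ± 13.4), Ring1 (10.4 ± 4.86) and Bmi1 (10.2 ± 5.80), which overlapped one another. In bulk dKO testis Eed stayed first at 79.0 TPM ± 15, and every pair of neighbours overlapped. RSEM gave Eed fractional counts in all 10 libraries, which means that some of its reads were shared with another locus, so its level is less certain than that of the other members.

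The question of the bulk comparison was how the RNA of the whole P7 testis differs after Prmt1 loss in germ cells. Among the Polycomb members, the catalytic pair of PRC2 moved in opposite directions: Ezh2 fell and Ezh1 rose, each by less than 2-fold. Pcgf6, the PCGF protein of PRC1.6, rose slightly. The remaining 7 members, among them Eed, Suz12 and the PRC1 catalytic genes Ring1 and Rnf2, did not pass the test. At FDR below 0.05 and at least 2-fold, 0 of 10 members were called, by edgeR as by DESeq2, while 7.1% of the 16554 genes tested by edgeR were called. On FDR alone, which is what passing or keeping a call means for single genes from here on, 3 of 10 members passed in edgeR (also 3 at an unadjusted p below 0.05, and 3 in DESeq2), against 19.1% of all genes tested. Of these, 2 were higher and 1 was lower in dKO, against 10.6% of all genes higher and 8.51% lower. The members' shares rest on 10 genes and are close to these backgrounds.

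**Figure D1:**
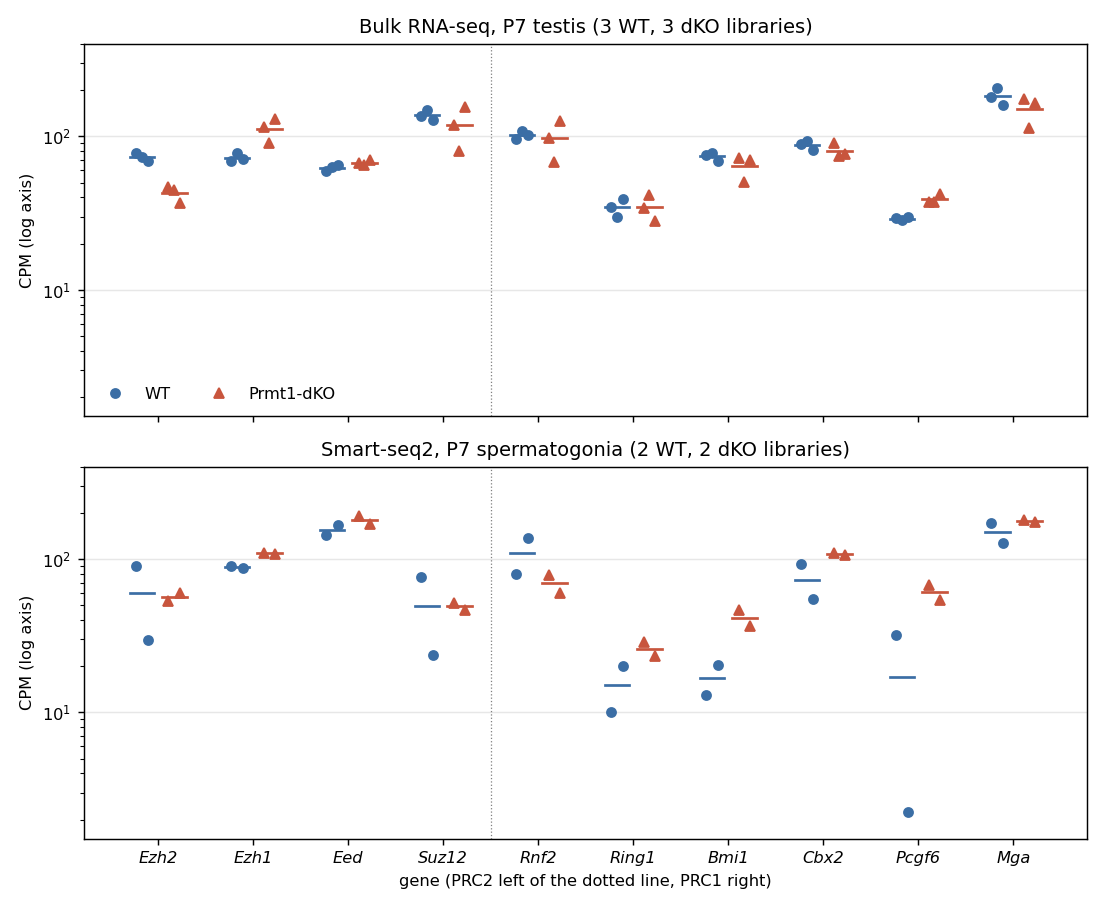
CPM of the 10 Polycomb genes in every library (log axis), with WT as circles, Prmt1-dKO as triangles and the group mean as a line, for bulk RNA-seq (top) and Smart-seq2 (bottom). In bulk, Ezh2 lies lower and Ezh1 and Pcgf6 lie higher in dKO without overlap; in Smart-seq2 the WT libraries are far apart for Pcgf6, Suz12 and Ezh2.

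Ezh2, the PRC2 methyltransferase typical of dividing cells, had 78.0, 72.9 and 69.4 CPM in the bulk WT libraries and 46.9, 44.8 and 36.7 in dKO. All 3 dKO libraries lay below all 3 WT libraries. The log2 fold change was -0.78 (SE 0.12, 95% interval -1.06 to -0.50, edgeR FDR 0.00401), a fall of 1.72-fold. It passed under every alternative fit tried, with adjusted p-values from 1.7e-06 to 0.0271. In Smart-seq2, Ezh2 had 90.2 and 29.5 CPM in WT and 53.2 and 60.2 in dKO. The WT libraries enclosed the dKO libraries, and the estimate of -0.08 carried an interval from -1.58 to 1.42 (edgeR FDR 0.965), which includes the change seen in bulk. Its direction depended on which WT library was kept: it was 0.96 without WT replicate 1 and -0.65 without WT replicate 2.

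Ezh1, the paralog that predominates in many resting and differentiated cells, had 69.1, 77.7 and 71.3 CPM in bulk WT and 115, 90.1 and 129 in dKO. The genotypes did not overlap, and the log2 fold change was 0.61 (SE 0.14, interval 0.30 to 0.93, edgeR FDR 0.0172). Leaving out WT replicate 1, WT replicate 2, WT replicate 3 or dKO replicate 1 ended the call, with FDR up to 0.103. On the TPM scale the genotypes overlapped, since dKO replicate 2 had 31.4 TPM beside 29.9 to 35.3 in WT. In Smart-seq2, Ezh1 was at 89.8 and 87.7 CPM in WT and at 110 and 108 in dKO, higher in dKO without overlap but not past the test (log2 fold change 0.30, SE 0.17, edgeR FDR 0.392).

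The balance of the methyltransferase pair was also expressed as the share of Ezh2 in the summed TPM of Ezh1 and Ezh2. In bulk it was 73.7%, 68.5% and 68.2% in WT and 45.4%, 60.3% and 40.1% in dKO. The means were 70.1% ± 3.08 (SD, n = 3) and 48.6% ± 10.5, and every dKO library lay below every WT library. In Smart-seq2 the share was 70.1% and 55.8% in WT and 55.6% and 58.0% in dKO, which overlap. The corresponding share of Rnf2 in Ring1 plus Rnf2 was 64.8%, 71.4% and 61.7% in bulk WT and 66.9%, 53.2% and 75.4% in bulk dKO, with the dKO libraries on both sides of WT. In Smart-seq2 the Rnf2 share was 89.3% and 83.5% in WT and 67.4% and 62.5% in dKO, lower in dKO without overlap. From counts without length correction the mean Ezh2 share was 50.3% in bulk WT, 28.1% in bulk dKO, 37.6% in Smart-seq2 WT and 34.1% in Smart-seq2 dKO. In Smart-seq2 the means by TPM were 63.0% in WT and 56.8% in dKO, so there the more abundant of the pair depends on the unit. In bulk the order of the means did not change, but by counts the WT libraries lay on both sides of an even split (53.0%, 48.4% and 49.3%). These shares describe the libraries and were not tested.

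**Figure D2:**
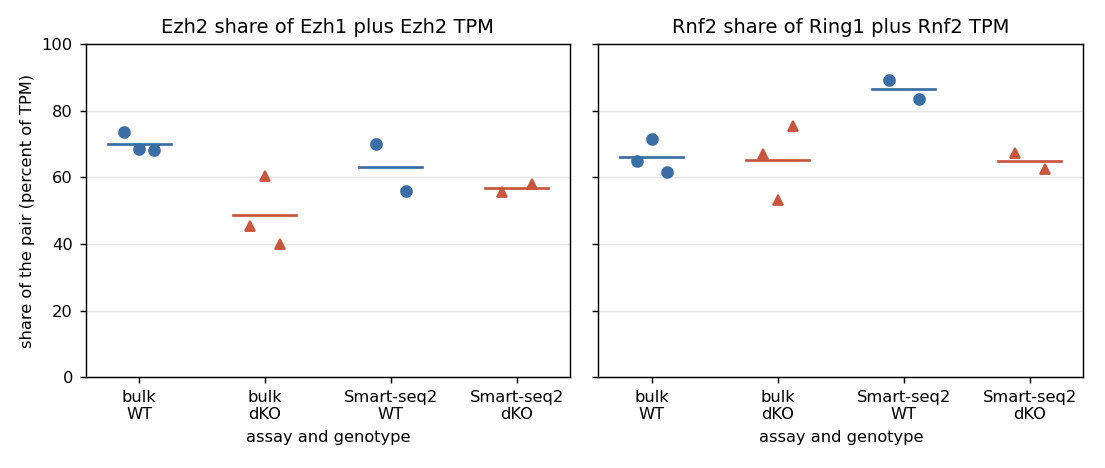
Share of Ezh2 in the TPM of Ezh1 plus Ezh2 (left) and of Rnf2 in the TPM of Ring1 plus Rnf2 (right), in percent, by assay and genotype, with 1 point per library and the mean as a line. The Ezh2 share is lower in bulk dKO (40.1% to 60.3%) than in bulk WT (68.2% to 73.7%), and the Rnf2 share is lower in Smart-seq2 dKO than in Smart-seq2 WT.

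Eed and Suz12, the core partners without which neither methyltransferase works, gave no call. Eed had 59.3, 62.8 and 65.4 CPM in bulk WT and 67.1, 65.1 and 70.2 in dKO. These values touch, and the log2 fold change of 0.11 had an interval of -0.11 to 0.34 (edgeR FDR 0.472), which excludes a 2-fold change in either direction. Suz12 had 136, 149 and 127 CPM in bulk WT and 119, 79.9 and 155 in dKO. Its dKO libraries spread wider than WT, with replicate 2 lowest, and its interval was -0.68 to 0.25 (log2 fold change -0.22, edgeR FDR 0.501). In Smart-seq2, Eed was at 144 and 167 CPM in WT and at 189 and 168 in dKO (edgeR FDR 0.587), and Suz12 was at 75.8 and 23.5 in WT and at 51.9 and 46.3 in dKO (edgeR FDR 0.993).

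Of the PRC1 ubiquitin ligases, Rnf2, also known as Ring1B, had 96.1, 109 and 102 CPM in bulk WT and 97.1, 68.5 and 125 in dKO, with dKO on both sides of WT (log2 fold change -0.08, interval -0.51 to 0.36, edgeR FDR 0.813). Ring1 had 34.7, 29.8 and 38.9 CPM in bulk WT and 34.0, 41.3 and 28.0 in dKO, again overlapping, with an estimate of -0.00 (interval -0.37 to 0.37, edgeR FDR 0.996). In Smart-seq2, Rnf2 was at 80.1 and 137 CPM in WT and at 78.8 and 60.2 in dKO. Ring1 was at 10.1 and 20.1 CPM in WT and at 28.7 and 23.2 in dKO. In these libraries Rnf2 lay lower and Ring1 higher in dKO, and neither passed the test (edgeR FDR 0.356 and 0.537).

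Bmi1, a PCGF protein of canonical PRC1 and a known repressor of the Cdkn2a locus, had 75.6, 78.4 and 68.8 CPM in bulk WT and 71.8, 50.1 and 70.0 in dKO. The bulk values overlapped (log2 fold change -0.21, interval -0.55 to 0.12, edgeR FDR 0.344). In Smart-seq2 Bmi1 was at 12.9 and 20.4 CPM in WT and at 46.2 and 36.7 in dKO. Both dKO libraries were above both WT libraries, and the log2 fold change was 1.32 (SE 0.45, interval 0.14 to 2.50), with an edgeR FDR of 0.17 and a DESeq2 adjusted p of 0.0648. Cbx2, the chromobox partner, was at 89.0, 93.9 and 81.1 CPM in bulk WT and at 90.5, 74.4 and 77.3 in dKO (edgeR FDR 0.485). In Smart-seq2 Cbx2 was at 92.1 and 54.7 CPM in WT and at 110 and 106 in dKO (log2 fold change 0.56, edgeR FDR 0.375). The Cbx2 estimate was 1.0 without WT replicate 1 and 0.25 without WT replicate 2.

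Of the PRC1.6 genes, Pcgf6 passed in bulk and Mga did not, and the difference between the genes was not tested. Pcgf6 had 29.3, 28.4 and 29.7 CPM in bulk WT and 37.3, 37.3 and 42.2 in dKO. The genotypes did not overlap, and the log2 fold change was 0.42 (SE 0.11, interval 0.17 to 0.66, edgeR FDR 0.0278), a rise of 1.34-fold. Leaving out any of the 3 WT libraries, dKO replicate 1 or dKO replicate 3 ended this call, with FDR up to 0.141. Mga was at 181, 206 and 160 CPM in bulk WT and at 176, 113 and 164 in dKO, which overlap (log2 fold change -0.27, edgeR FDR 0.310).

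In Smart-seq2, Pcgf6 had 31.9 and 2.25 CPM in WT, from 617 and 43 counts, and 68.1 and 53.6 in dKO. The log2 fold change of 1.83 (SE 1.19, edgeR FDR 0.464) depended on which WT library was kept: it was 0.95 (FDR 0.00521) without WT replicate 2 and 4.77 (FDR 4.72e-13) without WT replicate 1. Mga had 171 and 127 CPM in WT and 180 and 174 in dKO (edgeR FDR 0.578). In bulk, dKO replicate 2 was the lowest library for Mga, Suz12, Rnf2, Bmi1 and Cbx2, and without it the estimate for Rnf2 changed sign to 0.12, while Ezh1, Ezh2 and Pcgf6 kept their calls (edgeR FDR 4.49e-05, 0.000115 and 0.00443).

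**Figure D3:**
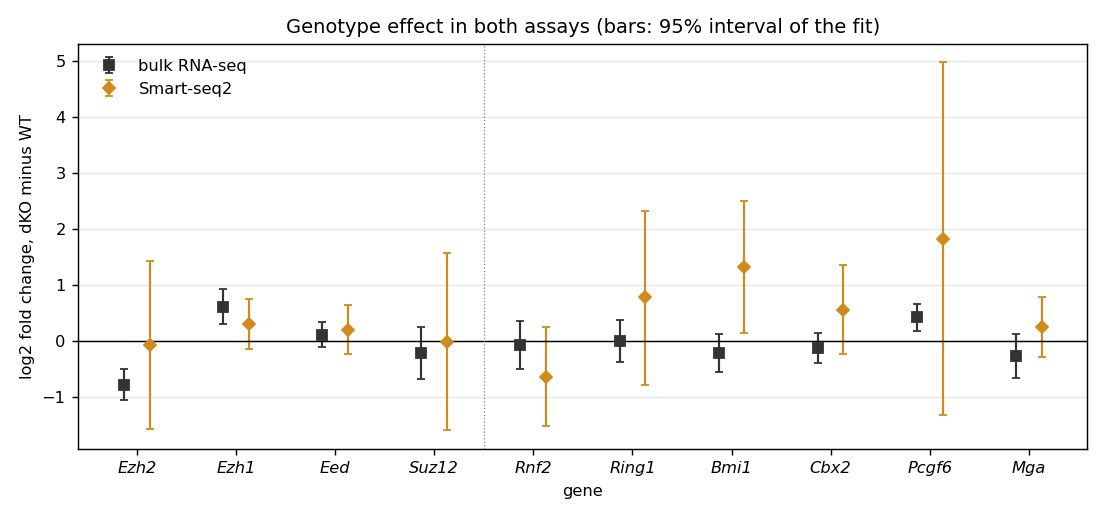
Log2 fold change of dKO against WT for each Polycomb gene in bulk RNA-seq (squares) and Smart-seq2 (diamonds), with the 95% interval of the edgeR fit as bars. Only the bulk intervals of Ezh2, Ezh1 and Pcgf6 and the Smart-seq2 interval of Bmi1 leave out 0, and the Smart-seq2 intervals are the wider ones in all 10 genes.

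The Smart-seq2 comparison asked the same of sorted spermatogonia. Of the 10 members, 7 had a positive and 3 a negative log2 fold change, and 0 passed FDR below 0.05 in edgeR. Bmi1 was the only member at an unadjusted p below 0.05, against 23.8% of the 16443 genes tested. The called share over all genes was 0% in edgeR with FDR below 0.05 and at least 2-fold, while DESeq2 called 1902 genes by the same rule and 0 of the members. The libraries of the genotypes did not overlap for 8 of 10 members, 7 of them higher in dKO, against 56.6% of all genes tested in this design of 2 against 2. In bulk, 3 of 10 members did not overlap, against 40.8% of all genes. The bulk share of members without overlap was thus not above that of genes in general. The Smart-seq2 outcome rests on single libraries: without WT replicate 1, 7 members passed FDR below 0.05 in edgeR, but so did 9191 of all 17942 genes tested, and without WT replicate 2, 5 members did, with 7839 of 18164 genes, where the lone WT library is assumed to vary like the dKO pair. Without dKO replicate 1 or dKO replicate 2, 0 members and 0 of all genes passed.

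The Smart-seq2 genotypes also differed in markers of other cells, whose part in the members' values was not tested. Over 10 macrophage markers the summed level was 0 to 5.74 CPM in WT and 65.1 to 79.3 CPM in dKO, with 9 and all 10 of the markers, Csf1r, C1qa and Cx3cr1 among them, at 0 counts in the WT libraries. The defining marker Adgre1 was at 0 in all 4 libraries. Of 7 endothelial markers, 6 were at 0 in each WT library and 2 in each dKO library, although the summed level was alike (8.32 to 10.3 CPM in WT and 8.94 to 10.7 in dKO). Genes with at least 1 count numbered 17106 and 15587 in WT and 21404 and 20194 in dKO. Leydig markers summed to 21.4 to 24.5 CPM in WT and 28.7 to 30.0 in dKO, and peritubular markers to 9.83 to 32.9 and 21.2 to 24.8.

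In bulk, markers of somatic cells moved with the genotype, and their part in the members' values was likewise not tested. Of 13 Sertoli markers tested, 6 fell and 0 rose (median log2 fold change -0.53), of 9 Leydig markers 5 fell and 1 rose (median -1.92), and of 7 peritubular myoid markers 5 fell and 0 rose (median -1.09), against a median of 0.02 over all genes. Of 14 germ cell markers 1 rose and 1 fell (median 0.05), of 10 macrophage markers 2 rose and 2 fell (median 0.26), and of 7 endothelial markers 2 rose and 1 fell (median 0.40). The summed germ cell level, 1630 to 1890 CPM in WT and 1620 to 1730 in dKO, overlapped between genotypes. The summed Leydig level was 808 to 941 CPM in WT and 496 to 544 in dKO, and the peritubular level 1350 to 1520 and 536 to 1120.

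Whether the genotype effect differed between whole testis and sorted spermatogonia was tested with an interaction term over the 10 RNA libraries. This fit gives both assays a shared spread, although the biological coefficient of variation was 0.155 in bulk and 0.767 in Smart-seq2. Its SE and FDR may therefore be too small: for Bmi1 its SE was 0.35, below the 0.45 of Smart-seq2 fitted alone. Bmi1 was the only one of the 10 members to pass, with a difference of 1.62 (Smart-seq2 minus bulk, log2, SE 0.35, interval 0.83 to 2.41, edgeR FDR 0.0120), against 19% of 19608 genes tested. It passed by limma-voom (1.65, adjusted p 0.0113) and lost its call only without Smart-seq2 dKO replicate 1 (1.46, FDR 0.0525) among the libraries left out in turn. Ezh2 had a difference of 0.79 with an interval from -0.44 to 2.02 (edgeR FDR 0.373), which was 1.83 (FDR 0.000126) without Smart-seq2 WT replicate 1 and 0.21 (FDR 0.565) without Smart-seq2 WT replicate 2. Pcgf6 had one of 1.49 with an interval from -0.96 to 3.95 (edgeR FDR 0.402), which was 4.44 (FDR 1.23e-06) and 0.61 (FDR 0.0773) without the same libraries. For these genes, passing FDR below 0.05 in bulk and not in Smart-seq2 is therefore not shown to be a difference between the assays over all libraries. Cbx2 had a difference of 0.77 (edgeR FDR 0.116).

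The other genes of the Polycomb system were taken from 5 lists that hold 52 genes. In bulk, 51 were tested, of which 2 rose and 6 fell at FDR below 0.05, against 10.6% higher and 8.51% lower among all genes (median log2 fold change -0.10, against 0.02 over all genes), and in Smart-seq2 0 of 51 passed (median 0.02, against 0.15). In either direction 8 of 51 passed, below the 19.1% of all genes tested. Of the other PRC2 subunits, 1 of 9 rose and 3 fell. Phf19, which links PRC2 to chromatin as a Polycomb-like protein, fell from 10.7, 6.93 and 8.23 CPM to 4.45, 4.46 and 3.62 (log2 fold change -1.05, SE 0.22, edgeR FDR 0.0127) and was the one gene of these lists past 2-fold, a call that was lost without WT replicate 1 (FDR 0.0612). Its paralog Phf1 rose from 33.7, 33.5 and 35.9 CPM to 53.0, 56.9 and 50 (0.63, SE 0.11, edgeR FDR 0.00479). The histone-binding subunit Rbbp4 fell by 0.36 on the log2 scale (SE 0.09, edgeR FDR 0.0278), and Lcor, which gives rise to a PRC2 partner, fell by 0.56 (SE 0.17, edgeR FDR 0.0496). The Rbbp4 call was lost without any of the 3 WT libraries or dKO replicate 3, and the Lcor call without WT replicate 1, WT replicate 2, dKO replicate 1 or dKO replicate 3.

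Of the other canonical PRC1 subunits, 1 of 10 rose and 0 fell. The riser was Cbx7, a chromobox reader that can replace Cbx2, at 19.4, 20.7 and 17.8 CPM in bulk WT and 34.6, 31.0 and 42.1 in dKO (log2 fold change 0.89, SE 0.14, edgeR FDR 0.00417). In Smart-seq2 Cbx7 was at 7.14 and 12.5 CPM in WT and at 35.6 and 38.4 in dKO, with an edgeR FDR of 0.107 and a DESeq2 adjusted p of 0.00909. Of the other variant PRC1 subunits, 0 of 14 rose and 2 fell: Bcorl1 by 0.62 on the log2 scale (SE 0.13, edgeR FDR 0.0120) and Rybp, which bridges variant PRC1 to Ring1 or Rnf2, by 0.51 (SE 0.12, edgeR FDR 0.0196). The Bcorl1 call was lost without WT replicate 1 or WT replicate 2 (FDR 0.0564 and 0.0604), and the Rybp call without any of the 3 WT libraries (FDR up to 0.107). Of the 11 other PRC1.6 subunits, such as L3mbtl2, E2f6 and Max, none passed in either direction in bulk by edgeR (median -0.11). Among 7 opposing enzymes, Kdm6b, an H3K27 demethylase, fell by 0.63 (SE 0.12, edgeR FDR 0.00984), a call that was lost without WT replicate 1 or WT replicate 2 (FDR 0.0511 and 0.0532).

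Genes known as Polycomb targets in other tissues were described in the same way. Of 15 germline genes linked to PRC1.6, 1 rose and 1 fell in bulk (median log2 fold change 0.06). Sycp3, a meiotic axis gene, was at 30.7, 35.2 and 33 CPM in WT and at 48.5, 50.9 and 46.2 in dKO (0.56, SE 0.11, edgeR FDR 0.00877, without WT replicate 1 FDR 0.0695). Ddx4, which is also the locus that carries the Cre, fell by 0.67 (SE 0.16, edgeR FDR 0.0184), and its call was lost without any of the 3 WT libraries (FDR 0.0531 to 0.0885). Of 20 developmental regulators 12 could be tested in bulk, and 3 rose, each at least 2-fold. A gene silent in WT enters the test only when it is high in dKO, as Pax6 did, so the count over those tested describes them and supports nothing about the list. The neural regulator Pax6 rose from 2, 7 and 3 counts to 59, 85 and 65 (log2 fold change 4.27, SE 0.44, edgeR FDR 0.00115). Gata3 rose from 17, 10 and 21 counts to 36, 90 and 72 (2.22, SE 0.44, edgeR FDR 0.00958). T, the mesoderm regulator, rose from 14, 18 and 15 counts to 30, 28 and 30 (1.07, SE 0.30, edgeR FDR 0.0370, but DESeq2 adjusted p 0.0990), and its call was lost when any 1 library was left out (FDR 0.0503 to 0.147). All 3 were near the lower limit of counting, and in Smart-seq2 none was above 33 counts in any library.

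Promoters of the members were examined in the 33 peak lists. A member was counted as marked by a histone mark at an age when at least 2 replicate lists held a peak whose summit lay within 3000 bp of one of its annotated transcript starts. The shares among 21938 protein-coding genes are given as background. The H3K4me3 lists were called by the authors at q 0.05 (4 lists) and the other 29 at p 0.005, so peaks of the other marks reach much weaker q-values. The windows also differ, since members have 2 to 12 distinct starts: their merged windows cover 40762 bp at Ezh2, 32739 at Mga, 27576 at Ezh1 and 26428 at Eed, but 6764 bp at Cbx2 and 6749 at Ring1, and a wider window holds more peaks by itself. The windows of Ring1 and Bmi1 overlap those of the coding genes H2-Ke6 and Commd3, so a peak there may belong to the neighbour. Members had peaks in a median of 20.5 of the 33 lists, from 14 (Bmi1 and Pcgf6) to 30 (Mga), against 13 for all protein-coding genes.

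**Figure D4:**
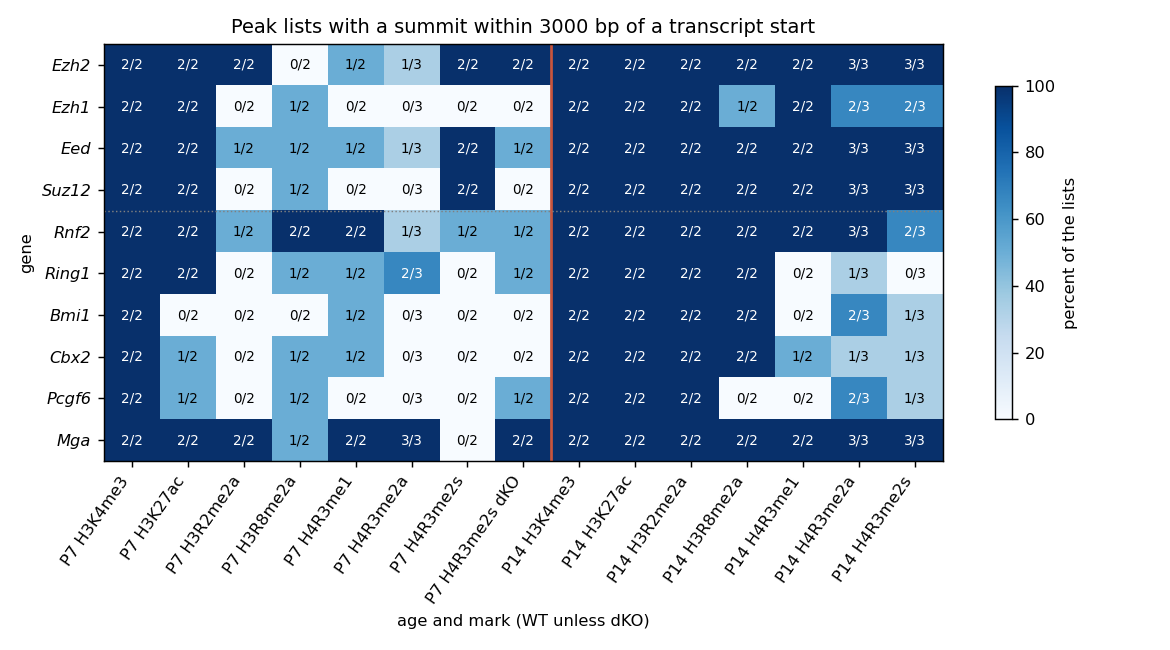
Number of peak lists with a summit within 3000 bp of a transcript start, out of the replicate lists of each age and mark, for every Polycomb gene (colour: percent of the lists; the vertical line separates P7 from P14). All 10 genes have H3K4me3 in every list, and P14 columns are fuller than P7 columns for each arginine mark.

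H3K4me3, the mark of active and poised starts, was present at all 10 members in both P7 lists (background 60.7%) and both P14 lists (63.1%). Its best peak had 3.70 to 7.19-fold enrichment at P7 and 3.63 to 8.51-fold at P14. The weakest peaks were those of Ring1 (3.70 and 3.98-fold at P7, 4.02 and 3.63 at P14) and Bmi1 (4.11 and 4.20 at P7, 4.71 and 4.87 at P14). H3K27ac, found at active promoters and enhancers, marked 7 members at P7 (background 30.9%) and 10 at P14 (48.9%). Among genes with H3K4me3 the shares were nearer, 49.8% at P7 and 74.9% at P14. With q of at most 0.01 the counts were 3 and 8. Counting only peaks that overlap between replicate lists, a rule chosen after the data had been seen, gave 7 at P7 and 7 at P14. Bmi1 had none in either P7 list, and Cbx2 and Pcgf6 had it in 1 of 2. Eed had the strongest P14 H3K27ac q-values of the members, with 5.96 and 5.80-fold enrichment and -log10 q of 14.67 and 14.51.

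Methylarginine marks were sparse at the members at P7. H3R2me2a marked 2 of 10 (Ezh2 and Mga, background 10.9%), H3R8me2a 1 (Rnf2, 9.67%), H4R3me1 2 (Rnf2 and Mga, 10.8%) and H4R3me2a, the asymmetric mark attributed to Prmt1, 2 (Ring1 and Mga, 15.3%). These shares rest on few genes and are near the background, and without H4R3me2a replicate 1 or replicate 2 only Mga stayed marked by it. None of these marks was kept at a member when peaks were limited to q of at most 0.01 in at least 2 lists. Of the 11 WT arginine lists at P7, Mga had a promoter peak in 8, Rnf2 in 7, Ezh2 and Eed in 6, Ring1 in 4, Suz12 in 3, Cbx2 in 2, and Ezh1, Bmi1 and Pcgf6 in 1 each.

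At P14 the members were marked more often. H3R2me2a marked all 10 members (background 51.3%), H3R8me2a 8 (33%), H4R3me1 6 (29.9%), H4R3me2a 8 (49%) and H4R3me2s 6 (34.2%). With peaks limited to q of at most 0.01 these counts fell to 5, 3, 1, 5 and 2. All 10 members carry H3K4me3, and among the 13846 genes that do so at P14 the shares were 73.1% for H3R2me2a, 49.8% for H3R8me2a, 44.4% for H4R3me1, 69.8% for H4R3me2a and 51.6% for H4R3me2s, nearer to the members' counts. Except for H4R3me2s, the P14 lists were also longer and stronger over the genome, with 6821 to 9683 H4R3me2a peaks at q of at most 0.01 against 1677 to 2366 at P7, so an age effect at the members cannot be told apart from this. The WT H4R3me2s lists overlapped between the ages, with 2109 to 4251 such peaks at P14 and 1680 to 3112 at P7, but numbered 3 at P14 and 2 at P7, and more lists make 2 with a peak easier to reach. Ezh2, Eed, Suz12 and Mga had a promoter peak in all 12 P14 arginine lists, Rnf2 in 11, Ezh1 in 9, Bmi1 and Cbx2 in 7, and Ring1 and Pcgf6 in 5. Among the PRC2 core, only Ezh1 was not marked by H3R8me2a at P14, and among PRC1 genes Pcgf6 was not. Ring1, Bmi1, Cbx2 and Pcgf6 were marked by neither H4R3me1 nor H4R3me2s, and Ring1 and Cbx2 were not marked by H4R3me2a. Without H4R3me2a replicate 1 or replicate 3, 5 members stayed marked in place of 8.

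Mga was the only member with an H4R3me2a promoter peak in all 3 P7 lists. Its summit lay 93, 49 and 110 bp downstream of a start in these lists, with 3.95, 3.13 and 3.99-fold enrichment and -log10 q of 1.57, 0.40 and 2.11. At P14 the enrichment was 5.39, 6.98 and 5.23-fold, with -log10 q of 5.14, 9.63 and 4.98. The P14 H4R3me2a lists were stronger over the genome and depth is unknown, so these values do not compare the ages. Ranked within each list by fold enrichment among marked protein-coding genes, Mga stood at percentiles 88.3, 45.7 and 92.1 at P7. At P14 it stood at 96.3, 99.2 and 92.3. The P14 summits lay at 62, 31 and -150 bp from a start. By contrast the P7 H4R3me2a peaks at Ring1 lay at -2668 and 1168 bp from the nearest start (negative values are upstream), in different places in the lists. H4R3me1 at Mga had 4.55 and 3.41-fold enrichment at P7 and 3.44 and 4.55-fold at P14, which overlap.

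H4R3me2s, the symmetric form of the same residue, was the only arginine mark profiled in both genotypes, at P7. In WT it marked 3 members, all of the PRC2 core (Ezh2, Eed and Suz12, background 17.7%), and in dKO 2 (Ezh2 and Mga, background 9.77%). Eed had 4.84 and 6.38-fold enrichment in WT (-log10 q 2.65 and 5.30), with summits 35 bp downstream and 121 bp upstream of a start, and in dKO a peak in 1 of 2 lists with 3.77-fold (-log10 q 0.51). Suz12 had 3.70 and 4.39-fold in WT and no promoter peak in either dKO list. Ezh2 had 4.23 and 4.22-fold in WT and 2.47 and 2.51-fold in dKO, where -log10 q was 0.00 in both lists, but these best peaks were not at 1 site: their summits lay at 91 and -2355 bp from the nearest start in WT and at 218 and -541 bp in dKO. Mga had no peak in WT and peaks of 3.08 and 3.14-fold in dKO with -log10 q of 0.08 and 0.01. The difference between the genotypes was not tested, and the dKO lists were weaker as a whole: 748 and 1038 peaks at q of at most 0.01, against 3112 and 1680 in WT. The order of the counts depended on the rule: with a peak in 1 list enough, 4 members were marked in WT and 6 in dKO, and with q of at most 0.01 in at least 2 lists 1 was marked in WT and 0 in dKO. In an alternative chosen after the data had been seen, which counted only peaks that overlap between replicate lists, Ezh2, Eed and Suz12 stayed marked in WT, and 0 members did in dKO.

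**Figure D5:**
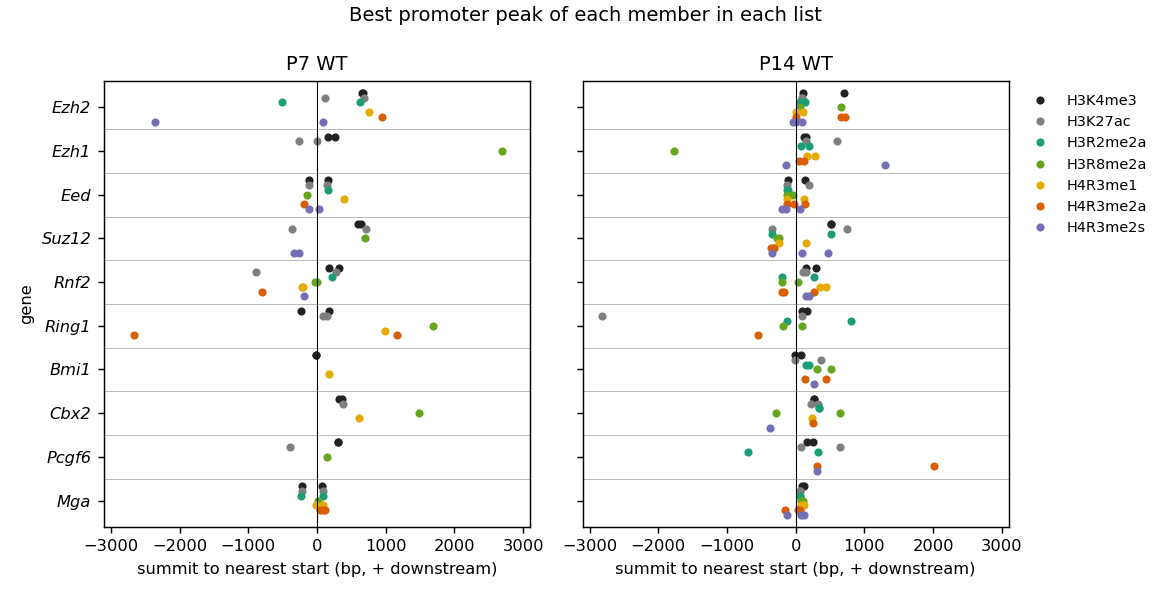
Distance in bp from the summit of the best promoter peak to the nearest transcript start for each Polycomb gene and list, in WT at P7 (left) and P14 (right), coloured by mark. Summits gather near the start at Mga and Eed in both ages, while the few P7 arginine summits of Ring1, Cbx2 and Ezh1 lie 606 to 2690 bp from a start, on either side.

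Over all 33 lists the members had 215 best promoter peaks, 173 of them with a summit within 500 bp of a start (median distance 194 bp). To show the sequence under these peaks, promoters were read from RefSeq (GRCm38.p6, from 250 bases before to 50 after the start, printed 5′ to 3′ on the gene's strand). The table matched 9 members, and Cbx2 (chr11:119022962-119031270, plus strand) is named only. Sequences of 6 motifs were searched on both strands: the E-box CACGTG (found in 7.15% of 32851 promoters), the E2F-type sites TTTCCCGC (1.07%) and TTTGGCGC (0.514%), the T-box site AGGTGTGA (1.28%), the CCAAT box CCAAT (37.4%) and the ETS site CCGGAAG (8.86%). Hits are in capitals in the sequences below, which were chosen for the methyltransferase pair that moved in opposite directions, for Eed with its H4R3me2s, for Mga with its H4R3me2a and for Bmi1 with its difference between assays.

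The Ezh2 promoter (chr6:47594981-47595280, minus strand) held 3 CCAAT boxes and 1 E2F-type site, had 64.3% GC and 31 CpG, and was covered by a peak in 23 of the 33 lists. The Ezh1 promoter (chr11:101226414-101226713, minus strand) held none of the motifs, had 59.3% GC and 23 CpG, and was covered in 15 lists. The medians over all promoters were 52.7% GC, 7 CpG and 1 list.
Ezh2: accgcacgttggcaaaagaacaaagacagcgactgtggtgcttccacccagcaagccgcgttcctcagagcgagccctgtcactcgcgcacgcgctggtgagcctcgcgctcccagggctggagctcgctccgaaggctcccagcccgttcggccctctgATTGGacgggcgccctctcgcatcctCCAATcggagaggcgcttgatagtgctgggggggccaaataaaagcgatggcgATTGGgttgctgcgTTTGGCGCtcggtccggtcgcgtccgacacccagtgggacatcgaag
Ezh1: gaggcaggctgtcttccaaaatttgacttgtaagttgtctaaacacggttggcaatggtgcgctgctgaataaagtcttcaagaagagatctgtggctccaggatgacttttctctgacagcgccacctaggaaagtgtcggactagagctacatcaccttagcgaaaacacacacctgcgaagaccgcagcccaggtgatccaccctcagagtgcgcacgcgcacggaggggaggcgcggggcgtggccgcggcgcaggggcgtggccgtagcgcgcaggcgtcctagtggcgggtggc

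The Eed promoter (chr7:89980927-89981226, minus strand) held 1 CCAAT box, which starts 25 bases after the start site, had 54.7% GC and 17 CpG, and was covered in 26 lists, among them both P7 WT H4R3me2s lists and all 3 at P14. The Mga promoter (chr2:119896978-119897277, plus strand) held none of the motifs, had 60.0% GC and 24 CpG, and was covered in 26 lists, among them 2 of 3 H4R3me2a lists at P7 and all 3 at P14.
Eed: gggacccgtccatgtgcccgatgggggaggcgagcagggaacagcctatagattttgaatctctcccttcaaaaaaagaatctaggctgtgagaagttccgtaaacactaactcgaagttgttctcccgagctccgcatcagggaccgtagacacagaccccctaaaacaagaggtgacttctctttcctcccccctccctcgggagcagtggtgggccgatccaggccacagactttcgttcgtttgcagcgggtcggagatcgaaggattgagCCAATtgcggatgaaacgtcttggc
Mga: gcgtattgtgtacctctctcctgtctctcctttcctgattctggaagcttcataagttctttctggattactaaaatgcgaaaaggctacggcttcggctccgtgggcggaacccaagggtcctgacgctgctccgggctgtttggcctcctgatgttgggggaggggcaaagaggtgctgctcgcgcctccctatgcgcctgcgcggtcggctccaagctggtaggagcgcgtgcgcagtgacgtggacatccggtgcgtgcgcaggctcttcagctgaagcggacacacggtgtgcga

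The Bmi1 promoter (chr2:18676768-18677067, plus strand) held 1 E-box, had 66.3% GC and 23 CpG, and was covered by a peak in 0 of the 33 lists. The H3K4me3 peaks counted for Bmi1 began downstream of it, at chr2:18677114-18677453 in the first P7 list, with the summit 13 bp upstream of another annotated start of the gene.
Bmi1: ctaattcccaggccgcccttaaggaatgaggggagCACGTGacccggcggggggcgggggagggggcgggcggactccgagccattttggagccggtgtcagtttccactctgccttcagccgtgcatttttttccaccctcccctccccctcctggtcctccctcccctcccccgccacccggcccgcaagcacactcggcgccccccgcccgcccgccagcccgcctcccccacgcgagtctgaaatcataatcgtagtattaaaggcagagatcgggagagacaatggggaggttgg

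The promoters not printed were those of Suz12 (chr11:79992856-79993155), with 1 TTTCCCGC site, 1 CCAAT box, 71.0% GC and peaks in 21 lists, and of Rnf2 (chr1:151500942-151501241, 16 lists), Ring1 (chr17:34024631-34024930, 12 lists) and Pcgf6 (chr19:47050857-47051156, 7 lists), which held none of the motifs. Thus CCAAT was found at 3 of the 9 members matched (Ezh2, Eed and Suz12), close to its 37.4% among all promoters, and the E-box, TTTCCCGC and TTTGGCGC at 1 each. A match describes letters in this window and is not evidence of a bound factor. GC content was above the median of all promoters at each of the 9 members, from 54.7% at Eed to 74.0% at Ring1.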

How the data were processed

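The authors trimmed reads with fastp 0.23.2, aligned RNA reads to mm10 with STAR and deposited RSEM expected counts, TPM and FPKM per gene and library. CPM were computed here from rounded expected counts and TMM library sizes. They also deposited CUT&Tag peak lists per library from MACS2 2.1.0, with each peak's fold enrichment (a ratio) and -log10 p and q. The aligner of the CUT&Tag reads is not given in the sources used here. Values used from the deposited files were expected counts, TPM, fold enrichment and -log10 q. FPKM were not used.

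Identifiers were matched to GENCODE vM21, ignoring versions: 55141 of 55401 matched. Expected counts were rounded and tested in edgeR 4.0.16 (quasi-likelihood test, TMM, filterByExpr with a minimum count of 10 and a total of 15, Benjamini-Hochberg over all genes tested) in R 4.3.3, separately per assay, and the assays were compared through an interaction term over all 10 libraries. Counts of genes are given at FDR below 0.05 with and without a limit of at least 2-fold, and single genes were judged by FDR alone. Alternatives were DESeq2 1.42.0, limma 3.58.1 (voom), other size factors, no filter, leaving out each library, a replicate block, and for peaks a narrower window, a stricter q and other overlap rules. The count model and the peak assignment were tested on simulated data.

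Total expected counts of 12396345 to 18547103 per library leave members at 43 counts or more, so the spread between libraries limits their precision: the biological coefficient of variation was 0.155 in bulk and 0.767 in Smart-seq2. Depth behind the peak lists is unknown. The rule for named genes took all 10 members, Prmt1, and from each pathway or target list up to 5 genes with FDR below 0.05 in either assay by size of change. Marker lists are given as counts and summed levels. The members and lists were chosen with earlier results of these data known. Ezhip was not matched.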

Additional observations from a re-analysis of the deposited data

Results flagged for a closer look

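The genotype effect (dKO against WT, log2) was compared between Smart-seq2 and bulk RNA-seq by the interaction test in edgeR. At FDR below 0.05 it differed for 6 of the genes named above, against 19% of all 19608 genes tested. Of these 6, all but Bmi1 are outside the members and were named because they passed FDR below 0.05 in bulk. Choosing genes by their bulk effect favours a difference from Smart-seq2 in advance, so the count cannot be set against that share. For Bmi1 the difference, Smart-seq2 minus bulk, was 1.62 (SE 0.35, FDR 0.0120), with -0.21 in bulk and 1.32 in Smart-seq2. For Rbbp4 it was 1.06 (SE 0.13, FDR 0.000964), with 452, 443 and 451 CPM in bulk WT against 361, 349 and 340 in dKO, and 41.9 and 42.6 in Smart-seq2 WT against 67.6 and 62.0 in dKO. For Kdm6b it was 1.47 (SE 0.24, FDR 0.00327), with -0.63 in bulk and 0.75 in Smart-seq2. For Sycp3 it was -0.77 (SE 0.18, FDR 0.0182), with 0.56 in bulk and -0.30 in Smart-seq2, and it was lost without Smart-seq2 dKO replicate 1 (FDR 0.0741). For Pax6 it was -6.84 (SE 1.99, FDR 0.0435) and for T 5.10 (SE 1.42, FDR 0.0430). The last 2 rest on few Smart-seq2 counts: Pax6 had 33 and 0 in WT and 1 and 3 in dKO, and T had 0 and 0 in WT and 15 and 2 in dKO. By limma-voom neither passed (adjusted p 0.127 for Pax6 and 0.0561 for T). The Pax6 difference was -0.16 (FDR 0.77) without Smart-seq2 WT replicate 1 and passed only without Smart-seq2 WT replicate 2, and the T difference was 3.11 (FDR 0.237) without Smart-seq2 dKO replicate 1 and passed only without Smart-seq2 dKO replicate 2. For Bmi1 the call was lost without Smart-seq2 dKO replicate 1 (FDR 0.0525). The interaction fit gives both assays a shared spread, although Smart-seq2 libraries varied more, so its SE and FDR may be too small. Bulk and Smart-seq2 differed in cells and in library preparation together, which cannot be told apart. Macrophage markers summed to at most 5.74 CPM in Smart-seq2 WT and at least 65.1 CPM in dKO, and their part in these differences was not tested.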

How the results depend on the processing

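The counts of members depend on single libraries and on the strength asked of a peak. At FDR below 0.05 and at least 2-fold, 0 members were called in bulk and 3 with FDR alone. Leaving out 1 library, the bulk count with FDR alone was 1 to 3 (1 without any WT library or dKO replicate 1), the Smart-seq2 count was 0 to 4 with the fold limit and 0 to 7 without it, and the interaction count was 0 to 6. Over all genes the bulk count at FDR below 0.05 was 3158 and went from 1365 (without WT replicate 1) to 5362 (without dKO replicate 2), and in Smart-seq2, where edgeR called 0, DESeq2 gave 2468. The replicate numbers did not pair the libraries (correlations of deviations by number 0.082, -0.221 and -0.119 in bulk, 0.018 and 0.018 in Smart-seq2), and with a replicate block 1 bulk member passed (Ezh2, FDR 0.0132) and 1828 genes did. Without the filter Pcgf6 had FDR 0.0556 in bulk. Of 191 alternative values for single members, 159 kept direction and call, 13 lost and 10 gained a call, and 9 changed sign. Values that changed sign were counted under that label only, also where the call changed with it. Sign changes of members in bulk were Ring1 to 0.08 without WT replicate 3 and 0.13 without dKO replicate 3 (range -0.15 to 0.13), and Rnf2 to 0.12 without dKO replicate 2 (range -0.31 to 0.12). In Smart-seq2 they were Ezh2 to 0.13 (block), 0.96 without WT replicate 1 and 0.04 without dKO replicate 1 (range -0.65 to 0.96), and Suz12 to 0.21 (block), 1.08 without WT replicate 1 and 0.05 without dKO replicate 2 (range -0.61 to 1.08). Genes outside the members also changed sign in Smart-seq2: Ddx4 to -0.02 (DESeq2), -0.01 (RLE) and -0.18 without WT replicate 1 (range to 0.33), Lcor to -0.04 without WT replicate 2 (range to 0.86), and Phf19 to 1.70 (block) and 7.94 without WT replicate 2 (range from -2.40). The causes were not tested. With q of at most 0.01 the marked members at P7 were 3 for H3K27ac, 0 for H3R2me2a, H3R8me2a, H4R3me1 and H4R3me2a, and for H4R3me2s 1 in WT and 0 in dKO. At P14 they were 8 for H3K27ac, 5 for H3R2me2a, 3 for H3R8me2a, 1 for H4R3me1, 5 for H4R3me2a and 2 for H4R3me2s. With 1 list enough, P7 counts were 4 (H3R2me2a), 8 (H3R8me2a), 7 (H4R3me1), 5 (H4R3me2a), 4 (H4R3me2s WT) and 6 (H4R3me2s dKO), so that dKO then exceeds WT. H4R3me2a at P7 fell to 1 within 1000 bp and with overlapping peaks (chosen after the data were seen), and to 1 to 2 without 1 list, at P14 to 5 to 8. With overlapping peaks H4R3me2s in dKO fell to 0 and H3K27ac at P14 to 7. From counts without length correction the Ezh2 share was 50.3% in bulk WT, 28.1% in bulk dKO, 37.6% in Smart-seq2 WT and 34.1% in Smart-seq2 dKO, and the Rnf2 share 74.8% in bulk WT, 72.7% in bulk dKO, 88.0% in Smart-seq2 WT and 72.7% in Smart-seq2 dKO.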

Other observations

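Across the 52 other Polycomb genes, 12 of 51 tested passed the interaction test between assays (edgeR FDR below 0.05), against 19% of all genes tested. By list these were 1 of 9 other PRC2 subunits, 2 of 10 canonical PRC1 subunits, 5 of 14 variant PRC1 subunits, 2 of 11 PRC1.6 subunits and 2 of 7 opposing enzymes. Of the 15 germline genes linked to PRC1.6, 5 passed, and of the developmental regulators 4 of 14. In Smart-seq2 the summed level of those 15 germline genes was 4740 to 4810 CPM in WT and 3390 to 3600 CPM in dKO, lower in dKO without overlap, with 5 positive and 10 negative log2 fold changes and 0 past FDR below 0.05 in edgeR. In bulk the same sum was 1390 to 1620 CPM in WT and 1440 to 1610 CPM in dKO, which overlap. In the Smart-seq2 design of 2 against 2 the genotypes did not overlap for 56.6% of all genes tested. The summed germ cell markers went the other way there, with 2160 to 2360 CPM in WT and 2890 to 3040 in dKO. The summed level of the 20 developmental regulators was 38.4 to 50 CPM in Smart-seq2 WT and 63.5 to 77.9 in dKO, and 394 to 422 CPM in bulk WT and 341 to 416 in bulk dKO. Some genes are in 2 lists: Wt1 is a developmental regulator and a Sertoli marker, and Ddx4, Dazl, Mael and Stra8 are in the germline list and among the germ cell markers, whose sums therefore share genes.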
